A study of Homo sapiens with 2 samples.

Results

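CIC and BCL6 encode transcriptional repressors, and both genes carried several peaks when RNA bound to eIF4A1 was sequenced from DU145, an established cell line of human prostate cancer. Their peaks were taken as every peak that the authors' annotation assigned to either gene, which gave 7 peaks at CIC and 5 at BCL6, 12 of the 1919 annotated peaks. The genes were chosen by the number and the fold of their peaks in these same libraries, so both measures are given below as a description, with no test.

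The study was RNA immunoprecipitation followed by sequencing (RIP-seq). A cytoplasmic extract of DU145 cells, for which the labels name no treatment, was cleared on beads and split between rabbit antibody to eIF4A1 and control rabbit IgG. There were 2 samples, 1 library for each antibody, and both titles carry the set number 2. No value had a replicate error, and all peaks come from the same pair of libraries, so the peaks of a gene are not replicates of one another. Neither library's total depth was stated, so depth is given per peak.

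eIF4A1 is a DEAD-box helicase that, as part of the cap-binding complex eIF4F, opens RNA structure in 5' leaders so that ribosomes can load and scan. CIC (capicua) is an HMG-box protein that holds genes of receptor tyrosine kinase signalling in check, and MAPK activity relieves that repression. CIC is made in a long and a short form from different promoters. BCL6 is a BTB zinc finger repressor that recruits corepressors such as NCOR1 and BCOR. It is best known from germinal centre B cells, where it keeps differentiation and DNA-damage response genes low.

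Each peak has a fold over control, a −log10 p and a −log10 q, all 3 the authors' own values. The number of eIF4A1 reads at the summit and the background expected there were recovered from the fold and p, under the peak caller's formula. The reads given for a peak are those at its summit, not all reads in the peak. Backgrounds came in whole steps of 0.880 at the upper end, in 108 of the 113 peaks at or above that value (whole multiples within 0.001 of a step), and this step was taken as the value of 1 control read. Peaks are numbered from the 5' end of each gene. Coordinates are 1-based on hg38.

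CIC lies on the plus strand of chromosome 19 (42268530 to 42295796, 27.3 kb), and all 7 summits were inside it. The peak nearest the 5' end (42272905 to 42273059) had a fold of 4.67 on 4 reads, with a −log10 q of 3.10. The second (42273651 to 42273824) had a fold of 5.85 on 10 reads, with a −log10 q of 3.25. Both were assigned by the authors to exon 2 of a 21-exon transcript, and their summits were 772 bases apart.

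A stretch of 13376 bases without a summit followed. The third CIC peak (42287192 to 42287230) had a fold of 4.67 on 4 reads, with a −log10 q of 3.10. The fourth (42287912 to 42287953), in exon 7 of the same 21-exon transcript, had 4.79 on 8 reads, with a −log10 q of 1.87. Those summits were 729 bases apart. The fifth peak (42291328 to 42291443) had a fold of 3.99 on 10 reads, the lowest fold at CIC. Its −log10 q, 1.31, was close to the lowest of all peaks, 1.30. The last 5 CIC summits fell within 7.81 kb, which is 28.6% of the gene.

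The sixth CIC peak (42292680 to 42292849) had the same values as the second, a fold of 5.85 on 10 reads. The seventh (42294963 to 42295022) stood apart, with a fold of 12.3 on 12 reads, a −log10 p of 26.2 and a −log10 q of 17.4. Its summit lay 790 bases from the 3' end of the RefSeq gene. By fold it ranked 2 among all peaks outside intergenic sequence. The remaining 6 CIC peaks had a median fold of 4.73.

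BCL6 lies on the minus strand of chromosome 3 (187721377 to 187745468, 24.1 kb), and all 5 summits were inside it. The first peak from the 5' end (187742652 to 187742795) and the second (187738866 to 187738885) had identical values, a fold of 3.99 on 3 reads and a −log10 q of 5.41. The third (187731795 to 187731814) had a fold of 3.90 on 3 reads and a −log10 q of 3.07. These 3 peaks rested on the same number of reads, and the third had the higher background, 0.0246 against 0.00352.

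The fourth BCL6 peak (187729307 to 187729524) was the highest of the gene and the widest of all 12, at 218 bases. Its fold was 6.23 on 6 reads, with a −log10 q of 4.57. The fifth (187725512 to 187725540) had a fold of 3.83 on 3 reads and a −log10 q of 2.22. The BCL6 summits were spread more evenly than those of CIC, with gaps of 2502 to 7059 bases against 729 to 13376 bases at CIC.

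**Figure D1:**
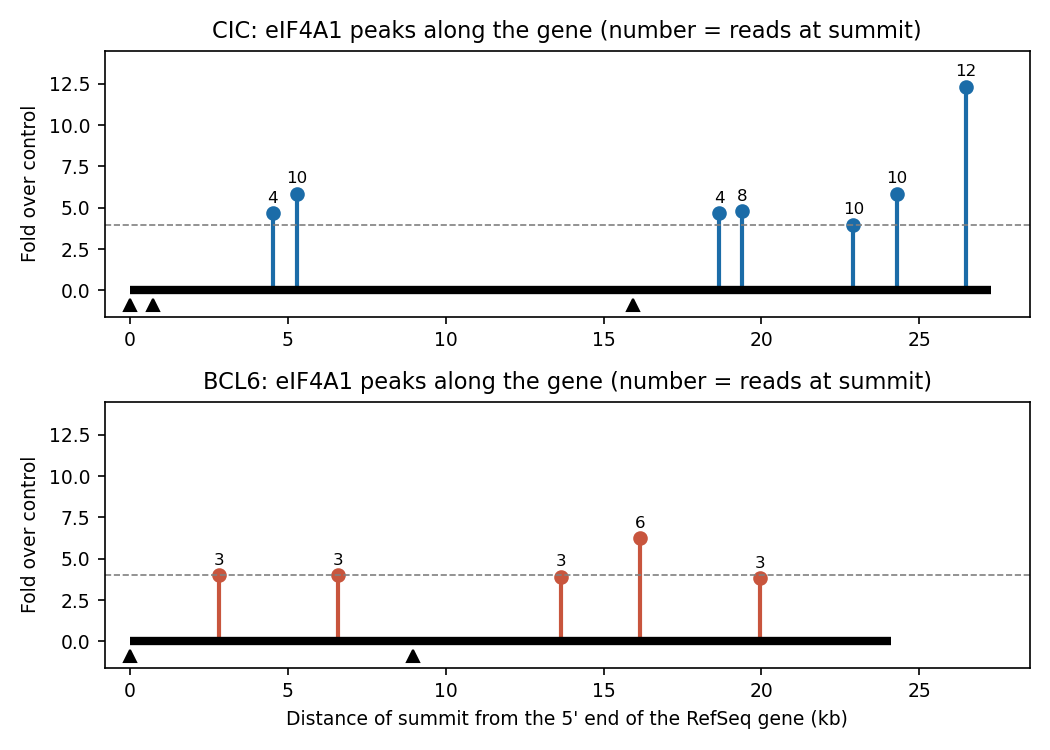
Fold over control (vertical axis, linear ratio) at each eIF4A1 peak against the distance of its summit from the 5' end of the RefSeq gene (horizontal axis, kb). Numbers are reads at the summit, black bars the genes, triangles the RefSeq transcript starts, and the dashed line the median fold of all peaks, 3.99; the CIC peaks form a pair near 5 kb and a group of 5 at the 3' side, while the BCL6 peaks are spread along the gene.

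RefSeq places 3 transcript starts in CIC, at 0, 722 and 15939 bases from the 5' end of the gene. The first 2 CIC peaks lie upstream of the last of these starts, so transcripts that begin there do not include them, and the other 5 lie downstream of every start. In BCL6, RefSeq places 2 starts, at 0 and 8967 bases. The first 2 BCL6 peaks lie before the second start and the other 3 after it.

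The authors' classes were similar for both genes in the share called promoter, 4 of 7 peaks at CIC and 3 of 5 at BCL6, against 57.3% of all annotated peaks. The other CIC peaks were in the exon class, and the other BCL6 peaks, numbers 3 and 4, in the 3' UTR class. The summits of BCL6 peaks 3 and 4 lay 10434 and 7932 bases from the 3' end of the RefSeq gene. From the 5' end, they were 56.7% and 67.1% of the way along it, so the class does not place these summits at the gene's 3' end. No CIC or BCL6 peak was classed as intronic, and 4.95% of all annotated peaks were. Of the 4 promoter-class CIC peaks, 1 lay within 3 kb of a RefSeq start, and of the 3 at BCL6, 2 did. The summit closest to a RefSeq start was the second of BCL6, 2369 bases upstream of the second start. The other promoter-class peaks, 3 at CIC and 1 at BCL6, were near starts of shorter listed transcripts inside the gene. For 5 of the 7 CIC summits and 2 of the 5 BCL6 summits, the transcript listed as nearest did not contain the summit. The seventh CIC summit, for example, lay 1 base past the end of a 546-base transcript. Neither this count nor that of promoter-class peaks near a RefSeq start was made over all annotated peaks. Neither is therefore read as particular to these genes.

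Every CIC summit lay in CIC alone among RefSeq genes. At BCL6, 3 of the 5 summits, those of peaks 3 to 5, also lay inside the long noncoding RNA gene LOC100131635 (chromosome 3, 187702366 to 187732415). The peaks carry no strand, so reads from BCL6 and from LOC100131635 cannot be told apart there, and this includes the peak of highest fold. The 2 peaks near the 5' end lay in BCL6 alone. No peak inside either gene was named after another gene.

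The genes differed in how many reads their peaks held at the summit. CIC summits carried 4, 10, 4, 8, 10, 10 and 12 reads from the 5' end on, 58 in all, and BCL6 summits carried 3, 3, 3, 6 and 3, 18 in all. The median over all peaks was 3 reads. At least 8 reads were found at 5 of 7 CIC peaks and at 0 of 5 BCL6 peaks, against 7.71% of all annotated peaks. Exactly 3 reads were found at 4 of the 5 BCL6 peaks, against 37.2% of all. The intervals of single peaks overlapped, which is not a test of whether their counts differ. The exact 95% Poisson interval was 6.20 to 21.0 for the 12 reads of the seventh CIC peak, 2.20 to 13.1 for the 6 reads of the fourth BCL6 peak, and 0.619 to 8.77 for a peak of 3 reads. These intervals cover counting error only, and they do not allow for the peaks having been called on these same reads.

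The backgrounds recovered at the summits also differed, but not independently of the reads. The recovered background equalled 1 control read at CIC peaks 2, 4 and 6 and 2 control reads at CIC peak 5. Thus 4 of 7 CIC peaks had a background of at least 1 control read, against 5.89% of all annotated peaks. No annotated peak of fewer than 8 reads had a background that high. The count therefore goes with the reads at CIC, and no BCL6 peak, at 3 to 6 reads, could have been among such peaks. The other 3 CIC peaks had backgrounds of 0.0704, 0.0704 and 0.0545. At BCL6 the background was below 1 control read at all 5 peaks, from 0.00352 at the first 2 to 0.123 at the fourth. The median over all peaks was 0.0176.

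**Figure D2:**
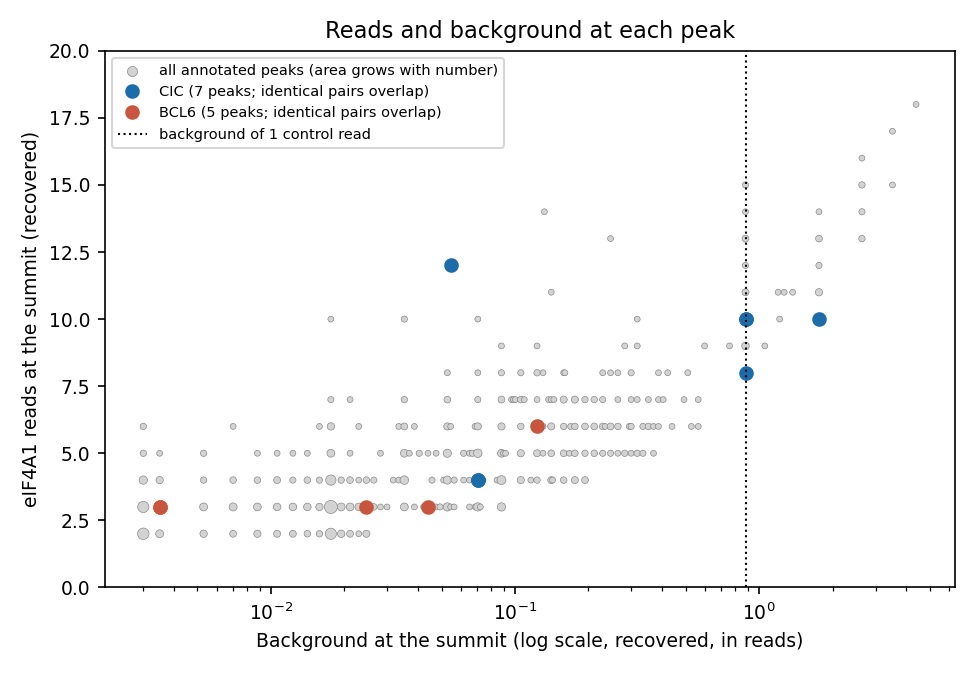
eIF4A1 reads at the summit (vertical axis) against the background at the summit (horizontal axis, log scale, in reads) for each annotated peak, with CIC and BCL6 coloured, identical peaks drawn on top of each other, and the dotted line at 1 control read, 0.880. Most CIC peaks sit at 8 to 12 reads, 4 of them on or right of the dotted line, and the BCL6 peaks sit at 3 to 6 reads and left of it.

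The high fold of the seventh CIC peak went with its low background more than with its reads. It held 12 reads and CIC peaks 2 and 6 held 10, while the backgrounds were 0.0545 and 0.880. With the background raised to at least 1 control read at every peak, which was decided on after seeing the data, its fold was 6.92 and that of CIC peaks 2 and 6 was 5.85. The ratio between them fell from 2.11 to 1.18. On that scale its rank was 12 of all annotated peaks, and by reads alone it was 30. Across the 5 peaks of 12 reads in the whole table, the fold ranged from 4.71 to 12.3.

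Raising the background in this way left 5 of 7 CIC peaks and 0 of 5 BCL6 peaks at or above the lowest −log10 p in the table, 5.59, against 7.71% of all annotated peaks. CIC peaks 2, 4, 5 and 6 already had a background of at least 1 control read. Their −log10 p was unchanged and so could not fall below that minimum. Of the CIC peaks whose background was raised, only the seventh stayed above it. For a background below 1 control read, the raised −log10 p depends on the reads alone. The counts and the share thus equal those for at least 8 reads above and add no separate difference between the genes. The 2 CIC peaks that no longer passed were peaks 1 and 3, with 4 reads each and a fold of 2.66. The fourth BCL6 peak had a fold of 3.72 on that scale and a −log10 p of 4.42. The 4 BCL6 peaks of 3 reads had a fold of 2.13.

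**Figure D3:**
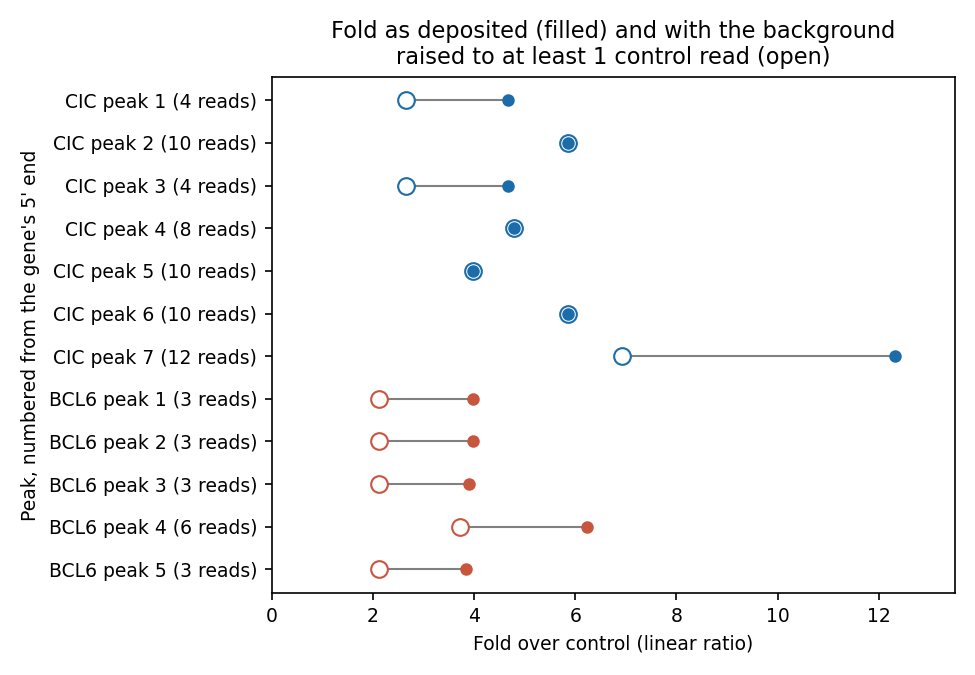
Fold over control (horizontal axis, linear ratio) for each CIC and BCL6 peak (vertical axis, numbered from the 5' end), as deposited (filled) and with the background raised to at least 1 control read (open). The fold stays in place at 4 CIC peaks and falls at the rest, from 12.3 to 6.92 at the seventh CIC peak.

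The −log10 q did not order the peaks by reads. The first 2 BCL6 peaks, on 3 reads, had a −log10 q of 5.41, above the 3.25 of CIC peaks 2 and 6, on 10 reads. A −log10 q of at least 5 was reached by 1 of 7 CIC peaks and 2 of 5 BCL6 peaks, against 26.3% of all. A fold of at least 5 was reached by 3 CIC peaks and 1 BCL6 peak, against 22.5%, and at least 5 reads by 5 CIC peaks and 1 BCL6 peak, against 26.7%. Among all 714 peaks of 3 reads, the −log10 q ran from 1.33 to 5.49.

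Peaks at CIC were from 39 to 174 bases wide (median 116) and those at BCL6 from 20 to 218 bases (median 29), against a median of 27 bases over all peaks. CIC held 2.57 peaks per 10 kb of gene and BCL6 held 2.08. All of chromosome 19 held 208 peaks and all of chromosome 3 held 93. Within 1000 kb of CIC there were 3 peaks of other genes, the nearest 38.2 kb away at GSK3A, a kinase gene (fold 4.75, 4 reads). Within 1000 kb of BCL6 there were 2, at RPL39L (582 kb away, fold 4.91, 4 reads) and at LPP, with a fold of 6.16.

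Of 1540 genes named for a peak outside intergenic sequence, 7 had 5 or more (0.455%), CIC and BCL6 among them. By reads summed over summits CIC ranked 4 and BCL6 ranked 22. The median fold was 4.79 at CIC and 3.99 at BCL6, which placed them 83 and 138 among the 212 genes with at least 2 peaks.

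The gene most like CIC, by a peak number within 1 and the smallest difference in log2 median fold in this pair of libraries, was BCAM, which encodes a laminin-binding surface glycoprotein. BCAM also had 7 peaks, with 59 reads in all, a median fold of 5.61 (log2 difference 0.23) and a background of at least 1 control read at 3 peaks. Its best fold was 6.43, against 12.3 at CIC. The only other candidate, PITPNM1, which encodes a phosphatidylinositol transfer protein, had 6 peaks and 19 reads in all.

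PITPNM1 was also the gene most like BCL6 by the same measure (median fold 3.93, log2 difference 0.02). Its peaks held 2 to 5 reads and BCL6 peaks 3 to 6. APLP2, of the amyloid precursor protein family, followed with 4 peaks, 18 reads in all and a median fold of 4.26. ACACA, encoding acetyl-CoA carboxylase, had 4 peaks, 14 reads in all and a median fold of 4.38, and it tied with DHCR7, a gene of cholesterol synthesis, with 4 peaks, 15 reads in all and the same median fold. None of these differences was tested.

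**Figure D4:**
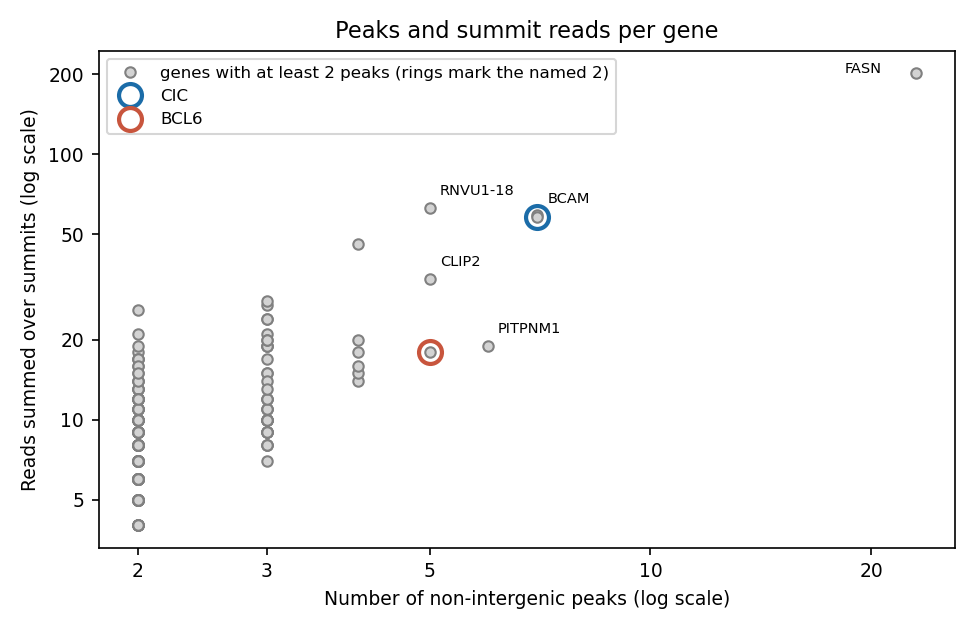
Reads summed over summits (vertical axis, log scale) against the number of non-intergenic peaks (horizontal axis, log scale) for each of the 212 genes with at least 2 peaks, with rings around CIC and BCL6. CIC lies beside BCAM at 7 peaks with 58 and 59 reads, and BCL6 near PITPNM1 with 18 and 19 reads.

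Genes of the CIC and BCL6 pathways, the BTB zinc finger family and other transcriptional repressors were examined through 8 lists, 183 distinct genes in all, of which 20 had a peak outside intergenic sequence (10.9%), against 6.83% of all protein-coding genes. The median best fold of those 20 was 4.17, against 3.99 over all genes with a peak. GPR3, DUSP5 and CXCR4 are among the 20, although their only summits lay outside the gene. By summits inside the RefSeq span, 21 of the 183 had a peak, against 6.98% of all protein-coding genes. These shares describe 1 pair of libraries. The lists were written with earlier results of these data known, so the higher share is a description only and was not tested.

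Upstream of CIC, 3 of 22 receptor and MAPK pathway genes had a peak, each with the summit inside the gene. GRB2, the adaptor that links receptors to RAS activation, had a fold of 6.65 on 6 reads. MAP2K2, encoding the kinase MEK2, had 4.38 on 4 reads, in the 5' UTR class. Of 15 CIC partners, ATXN1 and ATXN1L included, 0 had a peak. Of 20 CIC targets 2 were named, and neither summit lay in the gene. The GPR3 peak (5.25, 6 reads) lay in WASF2. The DUSP5 peak (2.98, 2 reads) lay in no RefSeq gene but was classed as promoter, within 1 kb of a start.

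Among BCL6 corepressors 3 of 22 had a peak, all with summits inside the gene. HDAC5, a class IIa histone deacetylase gene, had 3, the highest at 4.99 on 4 reads. TBL1XR1, encoding a subunit of the NCOR complexes, had 3.93 on 3 reads.

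Among BCL6 regulators 2 of 19 had a peak. STAT3, a cytokine-signalling transcription factor that can activate BCL6, had 2 peaks, with folds of 5.85 (10 reads) and 5.61. EP300, encoding the acetyltransferase p300, had 2, with folds of 5.32 (9 reads) and 3.99, and also stands in the list of BCL6 targets. Of 25 such targets 4 were named, among them EP300, CXCR4 and CD44 (3.92, 3 reads). The CXCR4 peak (4.35, 11 reads) lay outside CXCR4, in the pseudogene HNRNPKP2.

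Of 22 BTB zinc finger genes, the family of BCL6, 0 were named for a peak. By RefSeq span, 2 held one that the authors' table names after another gene, ZBTB4 (fold 4.79, 8 reads, listed under CHRNB1) and ZBTB2 (4.94, 4 reads, listed under AKAP12). By that measure, 6.98% of protein-coding genes had a peak. Of 45 other transcriptional repressors 7 were named. CBFA2T2, encoding a corepressor of the ETO family, led with a fold of 5.70 on 5 reads. TLE4, PHF12 and TLE2, all corepressor genes, had 3.99, 3.93 and 3.93, each on 3 reads. By RefSeq span 9 of the 45 held a peak, the added ones being MXD4, encoding a MAX-binding repressor that opposes MYC (fold 6.43, 6 reads, listed under MIR4800), and ETV3, encoding an ETS-family repressor (5.18, 5 reads, listed under CYCSP52). MXD4 thus held as many reads as the best peak of BCL6.

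Of 35 defining markers of cell types 2 had a peak (5.71%), a share near that of all protein-coding genes, 6.83%. A peak count does not measure expression, since a gene can be expressed and have no peak. Epithelial markers had 0 of 8, androgen-responsive prostate markers 0 of 6, B cell markers 0 of 8 and myeloid markers 0 of 4. FN1 was the only 1 of 5 mesenchymal markers (3 peaks, the highest at 3.94 on 3 reads) and MAP2 the only 1 of 4 neuronal markers (3.93, 3 reads). The labelled cell type could not be checked from these peaks.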

How the data were processed

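RIP-seq of DU145 cells was analysed from 2 deposited tables, 1 library per antibody. The submitters' processing notes name MACS2, ChIPseeker, BWA, STAR, Salmon, Picard and DESeq2 among the tools, and the builds hg19, GRCh38 and hg38. Versions, settings and the library that served as control were not stated. The deposited track, in narrowPeak layout per the file headers, gives 1920 peaks with the authors' fold (a linear ratio), −log10 p, −log10 q and score. It is filed under the IgG sample, but its peaks are named after the eIF4A1 library. The deposited annotation has 2051 rows for 1919 peaks, all with the same summit and −log10 q as in the track.

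The fold of MACS2 is (reads + 1)/(background + 1), and its p is the Poisson chance of more reads than observed. Whole read numbers from 1 to 399 were tried, and the best matched the deposited −log10 p within 0.01 at all 1920 peaks (largest difference 0.000761). A second number matched at 22 peaks, at 0 of the 12 described here. On 500 simulated peaks 99.6% of read numbers were recovered. The derivation rests on that formula.

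Gene spans and starts are from RefSeq (GRCh38.p14), matched by gene ID for 1918 peaks. Text names CIC and BCL6, up to 4 members of each list by fold, and up to 3 genes most like each; the pseudogenes and genes at a summit, the neighbours, ZBTB2, ZBTB4, MXD4, ETV3 and DHCR7 were named after their values were seen. A few list members are not reported here. The genes and lists were chosen with earlier results of these data known. No test was run and no replicate could be left out, since each group had 1 library. Python 3.11.15, scipy 1.17.1 and pandas 2.3.3 were used.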

Additional observations from a re-analysis of the deposited data

How the results depend on the processing

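Of 39 values under other settings, 25 moved by at most 1.5 times and 14 by more. With a −log10 q of at least 5, CIC had 1 peak (median fold 12.3), BCL6 had 2, and 6 of the 183 listed genes had a peak, against 7, 5 and 20. With a fold of at least 5 the peaks were 3 and 1, and the median fold of BCL6 was 6.23, against 3.99. Outside the promoter and intergenic classes they were 3 and 2. With at least 5 reads BCL6 had 1 peak (6.23) and the lists 8 genes. With the background raised to 1 control read or more, chosen after the data were seen, BCL6 had 0 peaks, so no median, and the lists 3 genes. CXCR4, whose summit lay outside the gene, was among them. That setting keeps the peaks of at least 8 reads. Fewer peaks enter these settings by construction. RefSeq spans, merging peaks within 100 bases, joining the tables by overlap and, chosen after the data were seen, leaving out each gene's highest peak moved no value by over 1.5 times. Depth limits all of this, since the BCL6 summits held 18 reads in all and the CIC summits 58. No paired analysis was possible because only 1 library was analysed for either antibody.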
